A study of Gallus gallus with 6 samples.

Results

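The amino acid transporters described here are the genes of the solute carrier (SLC) families SLC1, SLC3, SLC7, SLC36, SLC38 and SLC43. They were taken by symbol as every row whose name starts with SLC1A, SLC3A, SLC7A, SLC36A, SLC38A or SLC43A followed by a number, which gave 33 of the 18239 genes in the table. These were 6 genes of SLC1, 1 of SLC3, 13 of SLC7, 2 of SLC36, 9 of SLC38 and 2 of SLC43. One of the 33, SLC7A6OS, is named for lying opposite SLC7A6, is annotated to nucleus and cytoplasm and is not a carrier, so 32 transporters remain. Their transcripts were compared between the soleus, a leg muscle, and the pectoralis major, the breast muscle, of broiler chickens (Gallus gallus) aged 180 days, which by the series description carry very different fibre types. There were 3 RNA sequencing libraries per muscle, the labels name no treatment or genetic change in either group, and no label states that they are from different birds. The p-values therefore reflect only how far these libraries spread, and that spread may be technical.

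Amino acids cross the muscle cell membrane through carriers that differ in what they move and in what drives them. Sodium-coupled carriers of the SLC38 family concentrate small neutral amino acids such as alanine and glutamine inside the cell, and SLC1 carriers do the same for glutamate and aspartate. The light chains of the SLC7 family swap one amino acid for another and need a heavy chain from the SLC3 family to reach the membrane, whereas its cationic carriers work without one, and the SLC43 carriers let large neutral amino acids such as leucine move down their gradient. In mammals, leucine, arginine and glutamine that enter this way affect the activity of the kinase complex mTORC1 at the lysosome. This complex drives protein synthesis.

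Levels are in FPKM, which divides the fragments of a gene by its length and by the total of its library. Levels of different genes can be set side by side only as far as the counted lengths hold. These differed widely, with 26167 bases for SLC7A2 and 2710 for SLC38A3. The totals behind the FPKM values, recovered from their steps, were 38534335 to 39079981 fragments for soleus and 36309597 to 37123092 for pectoralis major, at which 1 fragment of a gene of 1 kilobase is worth 0.0256 to 0.0275 FPKM. The summed FPKM of 8 slow fibre genes was 13158 to 16995 in soleus and 56.7 to 155 in pectoralis major, with MYL2, a slow myosin light chain, listed at 0 in every pectoralis major library, and that of 6 fast fibre genes was 24204 to 31181 and 54598 to 61510. Of these 6, 4 were lower in soleus (66.7%, beside 17.4% of all genes tested) and TNNC2 did not pass. PVALB, the calcium buffer parvalbumin, went against the list with 8.12 to 22.6 FPKM in soleus and 0.0952 to 0.295 in pectoralis major. PVALB reached the filter for testing, given below, through soleus alone and so could only be called higher there.

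Of the 33 genes, 15 had 1 FPKM or more in 3 or more of the 6 libraries and were tested. Of these 15, 9 were higher in soleus, 1 was lower and 5 did not pass the test (limma on log2(FPKM + 1), Benjamini-Hochberg adjusted p under 0.05). The background over all 9616 genes was 40.0% higher and 17.4% lower. The 9 were the SLC38 genes SLC38A1, SLC38A2, SLC38A3, SLC38A4 and SLC38A10, the SLC43 genes SLC43A2 and SLC43A3 and the glutamate carriers SLC1A1 and SLC1A2, and the gene that was lower was SLC7A5, the leucine exchanger light chain. The 2 genes SLC38A4 and SLC1A2 reached the filter through soleus alone and so had to be higher there, and the counts over the 15 are a description only. The libraries of the 2 muscles did not overlap for 12 of the 15 genes. For SLC38A4 and SLC1A2 among these 12, the filter had fixed this in advance. A lack of overlap was common, as it held for 64.9% of all genes tested. In bulk tissue such as this, fewer cells of a type and less RNA per cell cannot be told apart.

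The median log2 difference, soleus minus pectoralis major, was 0.56 over the 15 genes and 0.26 over all genes tested. This shift of all genes depended on scaling, being -0.05 under median-ratio scaling and 0.47 when the totals held no mitochondrially encoded genes. All 9 genes that were higher lay above 0.26. Passing the test already took a difference of about that size or more, so this adds no support. Under median-ratio scaling, where 20.6% of all genes were higher and 30.1% lower, 6 of the 9 were still higher, and SLC1A1 (adjusted p = 0.209), SLC38A1 (0.0575) and SLC38A10 (0.0701) did not pass.

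**Figure D1:**
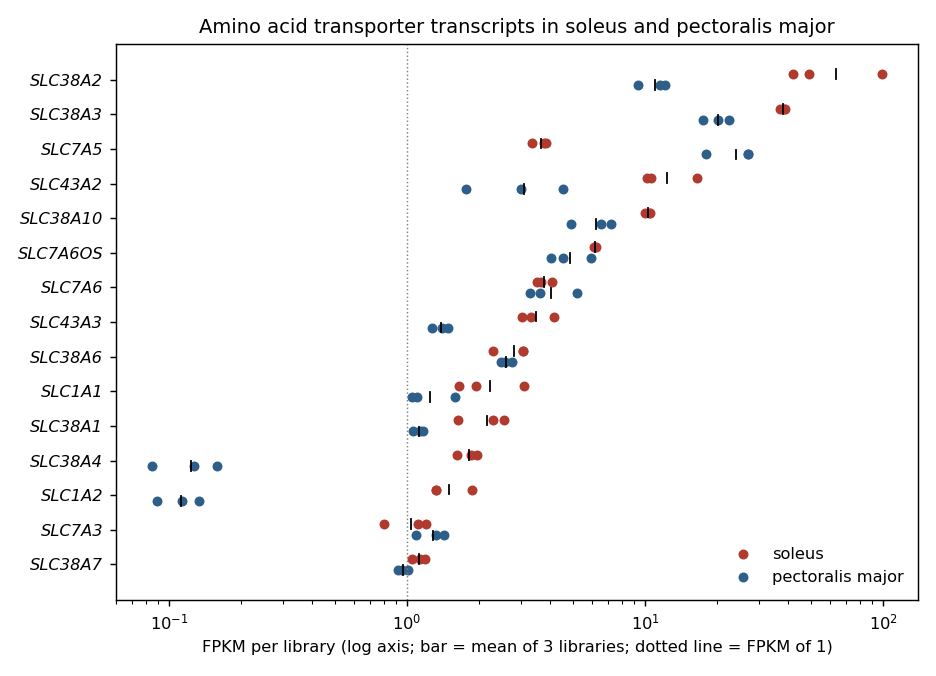
FPKM of the 15 tested genes in each library on a log axis, with red points for soleus, blue points for pectoralis major and a bar at the mean of 3 libraries. SLC38A2 lies between 42.0 and 99.0 FPKM in soleus and between 9.31 and 12.1 in pectoralis major, while SLC7A5 lies on the other side, at 3.34 to 3.84 and 18.0 to 27.2.

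The SLC38 carriers held most of the transporter transcripts in soleus and were the largest family in pectoralis major too. SLC38A2, the sodium-coupled carrier of alanine and glutamine known as SNAT2, had 99.0, 48.9 and 42.0 FPKM in libraries 1, 2 and 3 of soleus and 12.1, 11.5 and 9.31 in the same order in pectoralis major. The lowest soleus library was above the highest pectoralis major library, and soleus library 1 stood well above the other two. The log2 difference was 2.33 ± 0.29 (SE, limma adjusted p = 0.00031), and the means were 63.3 ± 31.1 and 10.98 ± 1.48 FPKM (SD, n = 3 each), a ratio of 5.76. Without soleus library 1 the log2 difference was 1.96.

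SLC38A3, the carrier known as SNAT3 that moves glutamine, histidine and asparagine, was the other abundant member. It had 38.6, 37.0 and 38.4 FPKM in the soleus libraries and 17.6, 22.6 and 20.3 in the pectoralis major libraries. The soleus libraries lay within 2 FPKM of each other and none overlapped with pectoralis major. Its log2 difference was 0.89 ± 0.13 (SE, limma adjusted p = 0.000726). SLC38A10, a family member annotated to the Golgi whose role in muscle is little known, had 10.4, 10.02 and 10.5 FPKM in soleus and 4.88, 6.52 and 7.18 in pectoralis major. These groups did not overlap either, and the log2 difference was 0.66 ± 0.15 (SE, limma adjusted p = 0.00589).

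SLC38A1 and SLC38A4, sodium-coupled carriers of the same transport system as SLC38A2, were present at low levels. SLC38A1 had 2.56, 1.63 and 2.29 FPKM in soleus against 1.13, 1.06 and 1.17 (log2 difference 0.56 ± 0.14 SE, limma adjusted p = 0.0078). SLC38A4 had 1.96, 1.63 and 1.86 FPKM in soleus and 0.085, 0.127 and 0.159 in pectoralis major. Soleus was above pectoralis major in every library for both genes, and SLC38A4 had few fragments in the breast muscle. For SLC38A4 the filter, reached through soleus alone, had fixed the direction and the lack of overlap in advance. The SLC38A4 values stood on 474 to 564 fragments per soleus library and 23 to 44 per pectoralis major library. Its log2 difference was 1.33 ± 0.10 (SE, limma adjusted p = 2.63e-05) on the log2(FPKM + 1) scale, on which changes of low genes come out too small, and 3.90 ± 0.35 (SE, adjusted p = 3.88e-05) by limma-voom on the fragments.

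SLC38A1, SLC38A2 and SLC38A4 follow each other without another protein-coding gene between them in the gene order of assembly GRCg7b. All 3 were higher in soleus, as were 40.0% of all genes tested. SLC38A4 reached the filter through soleus alone, and SLC38A1 did not pass under median-ratio scaling (limma adjusted p = 0.0575). Shared control of the 3 genes was not tested, and the amounts differed. The FPKM of SLC38A2 was 38.7, 30.0 and 18.3 times that of SLC38A1 in the soleus libraries. In the pectoralis major libraries it was 10.7, 10.9 and 7.95 times. Of the other SLC38 genes tested, SLC38A6 had 2.29 to 3.08 FPKM in soleus and 2.47 to 2.76 in pectoralis major and did not pass the test (log2 difference 0.08, 95% interval -0.23 to 0.38). SLC38A11 had 2 fragments in all 6 libraries together.

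Among the carriers of large neutral amino acids, SLC7A5 was lower and SLC43A2 higher in soleus. SLC7A5, the light chain of the exchanger LAT1 that brings leucine and other large neutral amino acids into the cell, had 3.84, 3.78 and 3.34 FPKM in the soleus libraries and 27.2, 18.0 and 27.0 in the pectoralis major libraries. The groups were far apart, and the lowest pectoralis major library, library 2, was still more than 4 times the highest soleus library. The log2 difference was -2.41 ± 0.17 (SE, limma adjusted p = 1.96e-05), and the mean in pectoralis major was 6.59 times that in soleus. Its heavy chain SLC3A2, which LAT1 needs at the membrane, had no row under that symbol, so its level is not given. SLC7A8, SLC43A1, SLC1A5 and SLC38A5 likewise had no row under those symbols. The sums, shares and family comparisons given here therefore cover only the genes found by symbol and not complete families.

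SLC43A2, the carrier LAT4 that lets leucine, isoleucine, methionine and phenylalanine move down their gradient, had 10.6, 16.5 and 10.1 FPKM in soleus and 1.77, 3.00 and 4.53 in pectoralis major. It was higher in every soleus library, with a spread of more than 2-fold among the pectoralis major libraries. The log2 difference was 1.73 ± 0.27 (SE, limma adjusted p = 0.000974) and the ratio of the means was 4.00. SLC43A3, which in mammals moves purine bases and not amino acids although it belongs to the family, had 3.04, 4.12 and 3.32 FPKM in soleus against 1.27, 1.41 and 1.48 (log2 difference 0.91 ± 0.13 SE, limma adjusted p = 0.000699).

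The order of these 2 leucine carriers within a library was reversed between the muscles. The FPKM of SLC7A5 was 0.363, 0.228 and 0.329 times that of SLC43A2 in soleus and 15.3, 5.99 and 5.96 times in pectoralis major. SLC7A6, the light chain of an exchanger of cationic for neutral amino acids that pairs with the same heavy chain as SLC7A5, had 3.50, 4.06 and 3.67 FPKM in soleus and 3.29, 5.17 and 3.61 in pectoralis major and did not pass the test (log2 difference -0.07, 95% interval -0.43 to 0.30). In soleus SLC7A5 and SLC7A6 were at about the same level, with a ratio of 0.91 to 1.09, and in pectoralis major SLC7A5 was 3.47 to 8.26 times as high.

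**Figure D2:**
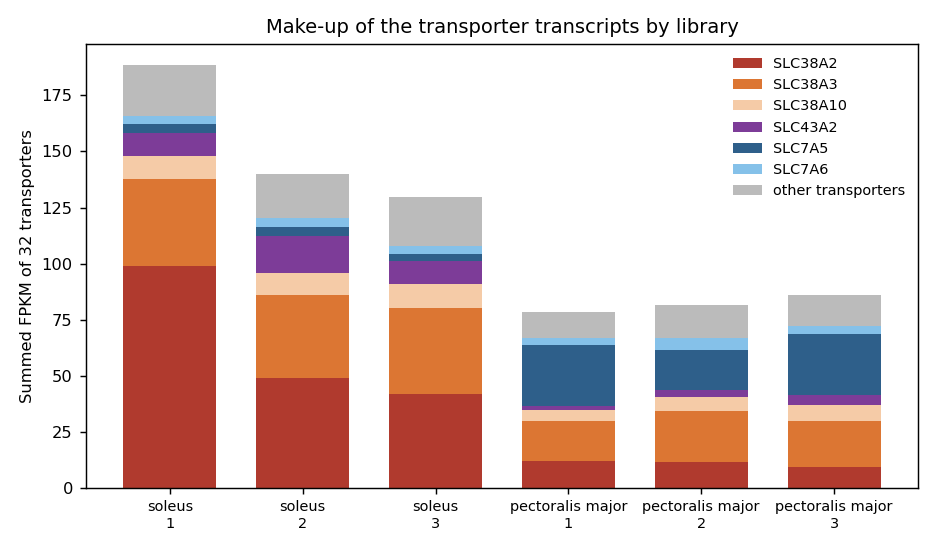
Summed FPKM of the 32 transporters in each library, stacked by gene, with soleus libraries on the left and pectoralis major libraries on the right. SLC7A5 (dark blue) makes up 2.03 to 2.70% of the sum in soleus and 22.1 to 34.7% in pectoralis major, and SLC38A2 (red) 32.4 to 52.5% and 10.8 to 15.5%.

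The summed FPKM of the 32 transporters was 188.5, 140.1 and 129.5 in the soleus libraries and 78.2, 81.3 and 85.9 in the pectoralis major libraries. Most of the sum came from SLC38 genes in soleus (100.0 to 157.7 FPKM against 39.6 to 46.1 in pectoralis major, where they were also the largest family). The SLC7 genes summed to 10.6 to 10.7 FPKM in soleus and 27.8 to 34.4 in pectoralis major, but without SLC7A5 to 6.79 to 7.33 and 5.96 to 9.80, which overlapped. The share of SLC38A3 in the sum was alike, with 20.5 to 29.6% in soleus and 22.4 to 27.8% in pectoralis major, while the shares of SLC38A2 and SLC7A5 did not overlap between the muscles.

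The order of levels differed accordingly. In soleus SLC38A2 was the most abundant, followed by SLC38A3, with no overlap between them, and then by SLC43A2 and SLC38A10, whose ranges overlapped. From SLC7A6 down to SLC1A2 each soleus range overlapped with the next. In pectoralis major SLC7A5 (mean 24.05 FPKM) and SLC38A3 (20.2) came first with overlapping ranges, then SLC38A2, which overlapped with neither SLC38A3 above it nor SLC38A10 below it.

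**Figure D3:**
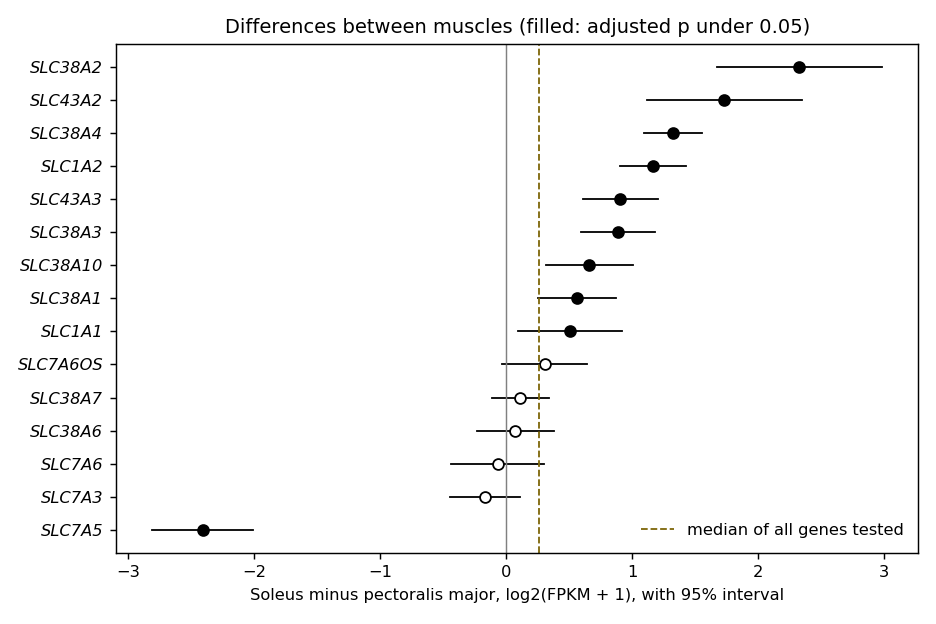
Log2 difference, soleus minus pectoralis major on log2(FPKM + 1), of the 15 tested genes with 95% intervals, with filled points for adjusted p under 0.05 and a dashed line at the median of all genes tested (0.26). SLC38A2 stands at the top with 2.33 and SLC7A5 alone lies to the left with -2.41, while the intervals of SLC7A3, SLC7A6, SLC38A6, SLC38A7 and SLC7A6OS include 0.

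The SLC1 carriers were all low, with none above 3.11 FPKM, and the glutamate carriers SLC1A1, SLC1A2 and SLC1A6 did not overlap between the muscles, with soleus higher. Among all genes tested, 64.9% did not overlap either. SLC1A2 reached the filter through soleus alone, which fixed its lack of overlap. SLC1A6 was not among the genes tested, so this share is no background for it. SLC1A2, the glutamate carrier EAAT2 best known from astrocytes, had 1.33, 1.33 and 1.87 FPKM in soleus and 0.113, 0.0893 and 0.134 in pectoralis major, on 710 to 1012 fragments per soleus library and 46 to 69 per pectoralis major library. Soleus was about a factor of 10 or more above pectoralis major in every library. The log2 difference was 1.17 ± 0.11 on the log2(FPKM + 1) scale (SE, limma adjusted p = 9.81e-05) and 3.74 ± 0.33 by limma-voom on fragments (SE, adjusted p = 3.25e-05).

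SLC1A1, the carrier EAAT3 that takes up glutamate and cysteine, had 3.11, 1.95 and 1.66 FPKM in soleus and 1.10, 1.59 and 1.05 in pectoralis major. The groups did not overlap, but the gap was small, 1.66 against 1.59. Its log2 difference of 0.51 ± 0.18 (SE, limma adjusted p = 0.0391) missed the threshold when 1 library was left out: soleus 1 (0.32, adjusted p = 0.123), soleus 2 (0.0649), pectoralis major 1 (0.0944) or pectoralis major 3 (0.106). It also missed it with no filter (0.108) and with totals that left out the top 50 genes (0.0779).

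SLC1A6, the glutamate carrier EAAT4, missed the filter although it stood on enough fragments. It had 0.623, 1.19 and 0.874 FPKM in soleus, on 226, 438 and 321 fragments, and 0.146, 0.189 and 0.143 in pectoralis major, on 50, 66 and 50. The groups did not overlap. By limma-voom on genes with at least 10 fragments in at least 3 libraries, a test chosen after the data were seen, the log2 difference was 2.44 ± 0.38 (SE, adjusted p = 0.000829). SLC1A4, the carrier ASCT1 of alanine, serine and cysteine, had 0.132 to 0.304 FPKM in soleus and 0.1505 to 0.163 in pectoralis major, and these overlapped (log2 difference 0.47, 95% interval -0.36 to 1.29).

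**Figure D4:**
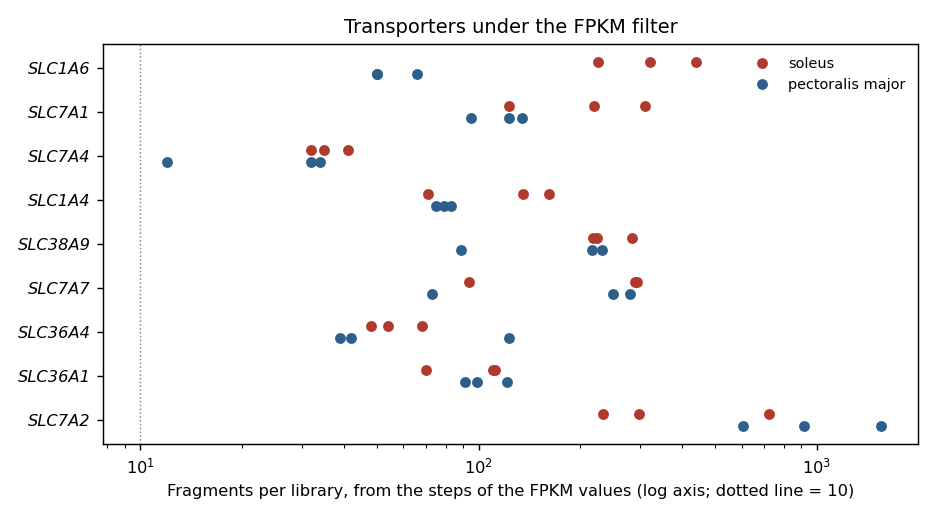
Fragments per library on a log axis for the 9 genes under the FPKM filter with at least 10 fragments in at least 3 libraries, with red points for soleus and blue points for pectoralis major. The soleus points of SLC1A6 (226 to 438) lie right of its pectoralis major points (50 to 66), and those of SLC7A2 lie at 233 to 724 and 604 to 1551.

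By that test on fragments, 24 of the 33 genes could be tested, of which 10 were higher and 2 lower in soleus, where 36.0% of the 13342 genes tested were higher and 13.2% lower. The genes that this added to the calls were SLC1A6, above, and SLC7A2, a carrier of arginine, lysine and ornithine known as CAT2. SLC7A2 had 0.718, 0.290 and 0.228 FPKM in soleus and 0.636, 1.60 and 0.941 in pectoralis major, low values for 233 to 1551 fragments because its counted length was 26167 bases. The groups overlapped, since soleus library 1 was above pectoralis major library 1. The log2 difference was -1.45 ± 0.43 (SE, limma-voom adjusted p = 0.0192). It missed the threshold when soleus 2 (adjusted p = 0.0693), soleus 3 (0.0743) or pectoralis major 2 (0.0549) was left out. On log2(FPKM + 1) it missed it with no filter (limma adjusted p = 0.107) and when the totals held no mitochondrially encoded genes (0.059).

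Of the other cationic carriers, SLC7A1 was under the FPKM filter and not tested by the main test, and SLC7A3 was tested and not called. SLC7A1, the widely expressed arginine and lysine carrier CAT1, had 0.845, 0.468 and 1.18 FPKM in soleus and 0.504, 0.381 and 0.537 in pectoralis major, on 95 to 311 fragments per library. Within each library number soleus was above pectoralis major, and the log2 difference of 0.73 ± 0.37 (SE, limma-voom adjusted p = 0.129) passed with the replicate number as a block (0.79, adjusted p = 0.0197) and without soleus library 2 (1.09, adjusted p = 0.0196). SLC7A3, another carrier of this kind, had 1.21, 0.80 and 1.11 FPKM in soleus and 1.09, 1.43 and 1.32 in pectoralis major and did not pass (log2 difference -0.17, 95% interval -0.45 to 0.11), whereas median-ratio scaling called it lower (-0.37, adjusted p = 0.0225).

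SLC7A7, a light chain that in mammals exports arginine and lysine from gut, kidney and macrophages, had 0.278, 0.847 and 0.856 FPKM in soleus and 0.229, 0.861 and 0.765 in pectoralis major. Library 1 was low in both muscles and the other libraries were alike (log2 difference 0.13, 95% interval -1.11 to 1.38, limma-voom). SLC7A4, a relative of the cationic carriers with no transport known to it, had 0.237 to 0.299 FPKM in soleus and 0.0943 to 0.262 in pectoralis major, on 12 to 41 fragments per library (log2 difference 0.51, 95% interval -0.66 to 1.68, limma-voom).

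SLC38A7 and SLC38A9, placed at the lysosome in mammals, were not called. SLC38A7, which releases glutamine and asparagine from the lysosome, had 1.19, 1.05 and 1.13 FPKM in soleus and 0.917, 0.955 and 1.01 in pectoralis major. The groups did not overlap, as for 64.9% of all genes tested, yet the log2 difference of 0.11 (95% interval -0.11 to 0.34) did not pass the test. SLC38A9, the lysosomal arginine sensor of mTORC1, had 1.03, 0.801 and 0.780 FPKM in soleus and 0.342, 0.870 and 0.813 in pectoralis major (log2 difference 0.46, 95% interval -0.30 to 1.22, limma-voom), with pectoralis major library 1 alone standing low.

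SLC36A1, a proton-coupled carrier of glycine, alanine and proline, had 0.740, 0.716 and 0.456 FPKM in soleus and 0.638, 0.830 and 0.679 in pectoralis major (log2 difference -0.19, 95% interval -0.88 to 0.50, limma-voom). SLC36A4, a carrier of proline and tryptophan, had 0.180 to 0.256 FPKM in soleus and 0.158 to 0.487 in pectoralis major, where library 3 stood apart with 123 fragments against 39 and 42 (log2 difference -0.15, 95% interval -1.22 to 0.93). Neither gene was called, and both intervals leave room for differences in either direction. SLC7A6OS had 6.11 to 6.21 FPKM in soleus and 4.03 to 5.91 in pectoralis major and did not pass (log2 difference 0.31, adjusted p = 0.104), but passed as higher without pectoralis major library 2 (0.44, adjusted p = 0.0294) and when the totals held no mitochondrially encoded genes (0.53, adjusted p = 0.0187). SLC7A6 is its neighbour in gene order, and no source used here says whether counting used strand, so reads from the pair cannot be told apart where the genes overlap.

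The other 9 genes had fewer than 50 fragments in all 6 libraries together and give no comparison. SLC3A1, the heavy chain that serves the cystine exchanger of kidney and gut, had 22, 2 and 4 fragments in soleus and 8, 1 and 3 in pectoralis major, and its light chain SLC7A9 had 0, 0 and 0 against 1, 7 and 0. SLC7A11, the light chain of the cystine and glutamate exchanger, had 3, 1 and 4 fragments against 19, 1 and 0, with most of them in pectoralis major library 1. SLC1A3 had 5 fragments, all in soleus library 3, SLC1A7 had 1, SLC7A10 had 2, SLC7A13 had 3 and SLC7A14 had 7.

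Genes that sense or respond to amino acids were taken from lists of the mTORC1 sensing machinery and of the ATF4 amino acid response. Of 36 sensing genes tested, 12 were lower and 6 higher in soleus, that is 33.3% and 16.7% beside 17.4% and 40.0% of all genes, and the list's median log2 difference was 0.09 against 0.26 over all genes. Of the 6, FNIP2 and SESN3 reached the filter through soleus alone and could only be called higher. The lower ones included RRAGD (22.2 ± 1.93 FPKM in soleus and 56.5 ± 14.2 in pectoralis major, SD, n = 3 each; log2 difference -1.29) and RRAGA (-1.28), Rag GTPases that bring mTORC1 to the lysosome, LAMTOR1 (-1.27), which anchors them there, and WDR24 (-1.24), a subunit of the GATOR2 complex. SESN2, a leucine sensor that restrains mTORC1, was higher in soleus, with 12.3, 10.3 and 7.63 FPKM against 5.22, 4.16 and 4.68 (log2 difference 0.94 ± 0.18 SE, limma adjusted p = 0.00242). SESN2 was picked after its values were seen, and it is counted again among the higher genes of the amino acid response. The most abundant member, EIF4EBP1, a repressor of translation that mTORC1 inactivates, had 203.1 ± 20.8 and 227.6 ± 34.7 FPKM and did not pass (log2 difference -0.16), whereas median-ratio scaling called it lower (-0.54, adjusted p = 0.0141).

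Of 20 tested genes of the amino acid response, 6 were higher and 5 lower in soleus than in pectoralis major. These are 30.0% and 25.0%, beside 40.0% and 17.4% of all genes tested. The median of the list was -0.12, against 0.26 over all genes tested. ATF4, the transcription factor that drives SLC7A5 and SLC38A2 in mammalian cells short of amino acids, had 258.0, 239.0 and 279.4 FPKM in soleus and 377.1, 380.0 and 427.1 in pectoralis major, a log2 difference of -0.61 (± 0.12 SE, limma adjusted p = 0.003). The groups did not overlap, and ATF4 was lower in soleus, the muscle with the lower SLC7A5 and the higher SLC38A2. A link of ATF4 with either carrier was not tested, and transcript levels do not show its activity. The other lower genes were PSPH (-2.41) of serine synthesis, MTHFD2 (-1.45) of mitochondrial folate metabolism, CTH (-1.01) of cysteine synthesis and GCN1 (-0.62), which activates the amino acid starvation kinase. ATF3 (1.38) and ALDH1L2 (1.17) had the largest differences among the higher ones. CHAC1, a glutathione-degrading enzyme, had 2.38, 17.1 and 3.76 FPKM in soleus and 0.527, 12.4 and 0.172 in pectoralis major, so library 2 was high in both muscles. It did not pass (log2 difference 1.20 ± 0.92 SE, limma adjusted p = 0.288) but passed with the replicate number as a block (adjusted p = 0.00194) and without pectoralis major library 2 (2.31, adjusted p = 0.0144).

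**Figure D5:**
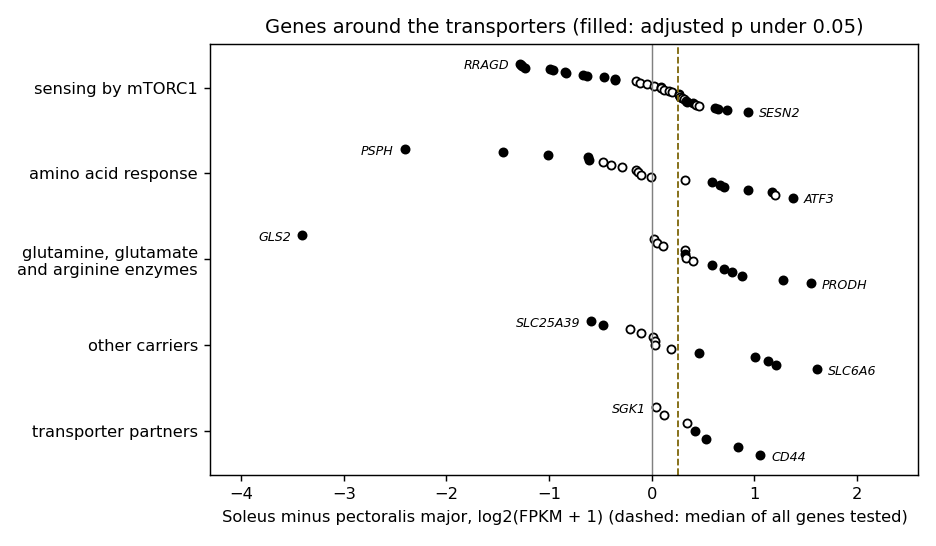
Log2 difference, soleus minus pectoralis major on log2(FPKM + 1), of every tested gene in 5 lists, with filled points for adjusted p under 0.05, the lowest and highest gene of each list named and a dashed line at the median of all genes tested (0.26). GLS2 (-3.41) and PSPH (-2.41) lie farthest to the left, and SLC6A6 (1.61) and PRODH (1.56) farthest to the right.

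Among 14 enzymes of glutamine, glutamate, proline and arginine metabolism tested, 7 were higher in soleus and 1 was lower. These are 50.0% and 7.14% of a short list, beside 40.0% and 17.4% of all genes tested. The median of the list was 0.37, against 0.26 over all genes tested. The lower one was GLS2, a glutaminase that turns glutamine into glutamate, with 7.75, 4.82 and 6.57 FPKM in soleus and 74.6, 80.9 and 73.5 in pectoralis major, a log2 difference of -3.41 (± 0.16 SE, limma adjusted p = 1.95e-06). Pectoralis major was thus about a factor of 10 or more above soleus in each library, the opposite direction to the glutamine carriers SLC38A2 and SLC38A3. PRODH (1.56), which starts proline breakdown, ASS1 (1.28), which makes argininosuccinate, and GPT2 (0.88), a mitochondrial alanine aminotransferase, were higher in soleus. GLUL, glutamine synthetase, had 8.53 ± 2.32 and 8.37 ± 4.03 FPKM and did not pass, and neither did GOT1, the most abundant of these enzymes, with 252.7 ± 21.5 and 243.4 ± 22.5.

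Of 13 tested carriers of amino acids, taurine and peptides from other families, 5 were higher and 2 lower in soleus, with a median of 0.04. These are 38.5% and 15.4%, near the 40.0% and 17.4% of all genes tested. The higher ones were SLC6A6, the taurine carrier (1.61), and the mitochondrial carriers SLC25A22 of glutamate (1.21), SLC25A29 of basic amino acids (1.13), SLC25A15 of ornithine (1.00) and SLC25A13 of aspartate and glutamate (0.46). SLC25A22 and SLC25A13 reached the filter through soleus alone and so had to be higher, and SLC25A13 missed the threshold under median-ratio scaling (0.26, limma adjusted p = 0.0716). SLC25A39 (-0.59), a mitochondrial glutathione carrier, and SLC15A4 (-0.47), a lysosomal histidine and peptide carrier, were lower, and SLC15A4 (adjusted p = 0.0417, limma) missed the threshold when soleus 2 (0.0821), soleus 3 (0.149), pectoralis major 2 (0.121) or pectoralis major 3 (0.0944) was left out, with no filter (0.0831) and when the totals held no mitochondrially encoded genes (-0.28, adjusted p = 0.196). SLC25A12, a mitochondrial aspartate and glutamate carrier and the most abundant, had 27.1 ± 1.09 and 27.1 ± 4.71 FPKM and did not pass. Of 7 proteins that partner carriers or control their place at the membrane, CD44 (1.06), ARL6IP1 (0.84), SGK3 (0.53) and NEDD4 (0.42) were higher. This is 57.1% of a short list, beside 40.0% of all genes tested. NEDD4, a ubiquitin ligase that takes carriers off the membrane (adjusted p = 0.0285, limma), missed the threshold when soleus 1 (0.0711), soleus 2 (0.101) or pectoralis major 3 (0.0915) was left out, with no filter (0.0674), with totals that left out the top 50 genes (0.0889) and under median-ratio scaling (0.15, adjusted p = 0.411). BSG, the most abundant of them and a partner of lactate carriers, had 263.2 ± 34.8 and 207.5 ± 26.1 FPKM and passed only in some settings, among them the replicate block (0.34, limma adjusted p = 0.0422), under which 43.7% of all genes were higher and 19.5% lower.

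Many markers of cell types other than the fibres were also higher in soleus. Of the tested markers, 14 of 15 endothelial, 11 of 12 macrophage and leukocyte, 9 of 9 adipocyte, 5 of 9 fibroblast, 8 of 8 smooth muscle and pericyte and 5 of 7 satellite cell genes were higher in soleus, and no marker of these lists was at 0 in all libraries of a muscle. Over all genes tested, 40.0% were higher. The fibroblast (55.6%) and satellite cell (71.4%) shares came nearest to this and rest on few genes. The satellite cell genes that did not pass were PAX7 (log2 difference 0.15, limma adjusted p = 0.337) and MYF5 (0.34, adjusted p = 0.115). DES, desmin, is left out of the smooth muscle list because muscle fibres carry it too, and TLR4 and PPARG reached the filter through soleus alone. The summed FPKM was 257 to 307.2 in soleus and 135.8 to 156 in pectoralis major for the endothelial list, 1073 to 1178 and 541.2 to 702.4 for the macrophage and leukocyte list, 579.2 to 780.8 and 128.2 to 137.9 for the adipocyte list and 288.1 to 412 and 214.8 to 406.4 for the fibroblast list. It was 336.7 to 467 and 164.5 to 236.3 for the smooth muscle and pericyte list and 81.2 to 85.1 and 38.6 to 46.8 for the satellite cell list. SLC7A5 was lower in soleus, where the called markers of these lists were higher. The part of these cell types in the differences of SLC7A5 and the other transporters was not tested.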

How the data were processed

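Per the file headers, the authors deposited FPKM values of the 6 libraries in 1 table beside a symbol, a gene number and annotation for each gene. The labels name TRIzol for RNA extraction and the VAHTS Universal V6 kit for library preparation. The tools named in the submitters' processing notes are HISAT2, HTSeq, Cufflinks and R 3.2.0, with build GRCg6a, and nothing in them says whether strand was used. The gene table used for names and gene order is of assembly GRCg7b, so no coordinates are given, and all 18239 gene numbers matched it.

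Genes that had 1 FPKM or more in 3 or more libraries were tested with limma 3.58.1 in R 4.3.3 (variance trend, two-sided) on log2(FPKM + 1), with Benjamini-Hochberg adjustment over all genes tested and a threshold of 0.05. Python 3.11.15, numpy 2.4.6, pandas 2.3.3 and matplotlib 3.10.9 were used for tables and figures. Whole fragments and gene lengths were recovered from the steps between FPKM values, reproduced all 94897 values above 0 within a relative tolerance of 1e-06, and are the smallest that do so; limma-voom used them. The scripts were tested on simulated data.

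Libraries of the same number deviated together (r = 0.398, 0.445 and 0.367 over genes for numbers 1 to 3, and -0.301 to -0.128 between numbers), so the numbers were taken to pair the muscles. This pairing comes from the data and is not stated by the labels. The values between numbers are negative in part by construction, since the deviations within a muscle cancel out. The main test did not use the pairing, so SE, intervals and p-values are unpaired unless the replicate block is named. Alternatives were another pseudocount, other filters, 3 scalings, the replicate block, voom and leaving out each library. Every transporter past the filter is named. For other lists the rule named up to 4 called genes with the largest difference, all called genes of a direction where 5 or fewer passed, and the most abundant member, and SESN2, GLUL and CHAC1 were chosen after their values were seen. The members and lists were chosen with earlier results of these data known. The result of 1 cell type list is not reported here. Symbols of a list without a match in the table were not used.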

Additional observations from a re-analysis of the deposited data

How the results depend on the processing

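SLC7A5 stayed lower and SLC38A2, SLC38A3, SLC43A2 and SLC43A3 stayed higher in soleus, past the threshold, in every alternative in which they were tested. Among the genes taken by symbol, the count higher in soleus was 9, and 4 for a mean FPKM of 5 or more, where fewer genes are tested. Without single libraries it was 6 to 10, and 8 to 10 when the genes of the 6-library filter were kept. The count of 10 came without pectoralis major library 2 and included SLC7A6OS, which is not a carrier. The count of those lower was 1, and 2 under median-ratio scaling (with SLC7A3), with totals that left out the top 50 genes and by voom with at least 10 fragments (both with SLC7A2). Over all genes, 3844 were higher and 1670 lower; the higher count was 1639 for a mean FPKM of 5 or more and 1952 under median-ratio scaling, where 2854 were lower, and without single libraries the counts were 2495 to 3608 and 1284 to 1610. Without mitochondrially encoded genes in the totals 5337 were higher and 1129 lower, and with the replicate block 4205 and 1873. Among the 57 genes compared by name, the block changed the calls of SLC7A1, BSG and CHAC1 and no other call.

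Some genes that did not pass changed sign, and the cause was not tested. Under median-ratio scaling these were SLC38A6 (-0.21), SLC38A7 (-0.083), SLC7A6OS (-0.019), GOT1 (-0.33), SLC25A12 (-0.36), GLUL (-0.23) and BSG (-0.046). With totals that left out the top 50 genes they were SLC38A6 (-0.027), SLC7A7 (-0.0076), GOT1 (-0.079), GLUL (-0.0043) and SLC25A12 (-0.12), and without mitochondrially encoded genes SLC7A6 (0.13) and EIF4EBP1 (0.076). Without single libraries SLC7A6 ranged from -0.1715 to 0.0915, GOT1 from -0.018 to 0.1165, GLUL from -0.305 to 0.384 and SLC25A12 from -0.111 to 0.133, and by voom SLC7A7 from -0.46 (also -0.13 and -0.14) to 0.67, SLC36A1 from -0.31 to 0.0324 and SLC36A4 from -0.42 to 0.38. Genes with fewer than 50 fragments in all are beyond what this depth can compare.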

Other observations

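Outside the 6 families, 15 genes in the table carry an annotation term of amino acid transport, and 3 of these were tested. SLC17A5, which releases sialic acid from lysosomes, had 2.16, 1.2 and 1.61 FPKM in soleus and 0.88, 0.66 and 0.84 in pectoralis major, a log2 difference of 0.55 (limma adjusted p = 0.0118). It reached the filter of 1 FPKM through soleus alone and so could only be called higher there. PDPN, podoplanin, a membrane glycoprotein of lymphatic endothelium, had 3.23, 4.41 and 3.86 FPKM against 0.63, 0.84 and 1.57 (log2 difference 1.28, limma adjusted p = 0.000694). SLC16A10, the carrier of aromatic amino acids known as TAT1, had 9.06, 6.82 and 5.67 against 6.87, 8.36 and 7.89 and did not pass (log2 difference -0.11). The other 12 reached at most 0.239 FPKM in any library.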
